A study of Mus musculus with 6 samples.

Results

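Mitochondrial ribosomal proteins are the protein components of the ribosome inside mitochondria, named Mrpl in the large and Mrps in the small subunit. Every gene whose symbol begins with Mrpl or Mrps followed by a digit in the table of all probe sets was taken, which gave 37 of 14411 named genes, 23 of the large and 14 of the small subunit. These 37 genes were measured by 61 of 33142 probe sets, and the brightest probe set, by its mean over all arrays, stood for the gene. The other named genes served as background, both all 14374 of them and the 4686 with a mean log2 value of 8 to 12, the interval that held 36 of the 37 members.

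Transcripts were measured on Affymetrix whole-genome mouse arrays in undifferentiated mouse embryonic stem cells (mESCs), with 3 arrays of WT and 3 of Alkbh1-/- cells. Both groups were C57BL/6 cells at passage 8 and day 0 of differentiation, kept with leukemia inhibitory factor on irradiated CF-1 mouse embryonic fibroblast feeders, and neither was treated before RNA extraction. The lines came from embryos of the same litters bred from heterozygous parents, and the comparison asks how expression differs without ALKBH1, a dioxygenase of the AlkB family. The array names carry 1 line number per genotype (C3 for WT, C10 for Alkbh1-/-), so genotype and cell line cannot be told apart, and nothing says that the 3 arrays of a group came from separate cultures. P-values therefore measure the spread between these arrays, which may be technical. Single arrays were not analysed here, so group means are given, and whether the arrays of the groups overlapped was not looked at.

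Mitochondria hold their own small genome, which encodes a few hydrophobic subunits of the respiratory chain and the ATP synthase together with the RNAs of the mitochondrial ribosome. All proteins of that ribosome are encoded in the nucleus, made in the cytosol and imported. The small subunit binds the messenger RNA and reads its codons, and the large subunit joins the amino acids and passes the growing chain to the inner membrane. Many of these proteins descend from those of the bacterial ribosome, and others were added in the evolution of mitochondria.

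Several measurements describe the samples as a whole. The targeted gene Alkbh1 had a mean log2 value of 9.57 in WT and 4.69 in Alkbh1-/- cells, a difference of -4.89 with an adjusted p of 2.99e-05 in limma's moderated test. All 8 stem cell markers looked at were present, with means of 10.05 to 14.49. In Alkbh1-/- cells 7 of these 8 had a higher mean (median difference 0.29). Of these markers, Nanog (by 1.10), Esrrb and Tdgf1 rose, and Utf1 fell. All 15 feeder fibroblast markers were lower in Alkbh1-/- cells, with a median difference of -0.84 and 0 of 15 called by limma's moderated test (6 had an unadjusted p under 0.05). The 4 Y-linked genes fell by a median of 4.45 on the log2 scale. Their means were 6.18 to 9.55 in WT and 2.91 to 3.90 in Alkbh1-/- cells. The lowest mean of any probe set over all arrays was 3.22. Xist differed by 0.01, at a mean of 5.36 and with a wide 95% interval of -0.99 to 1.01. Of 428 named genes on the X chromosome, 220 rose. The members lay on 17 chromosomes, and 0 of them on X or Y. The part of the stem cell marker, feeder and sex chromosome differences in the results that follow was not tested. In bulk samples, fewer cells of a type and less RNA per cell cannot be told apart.

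The mitochondrial ribosomal protein genes differed little between the genotypes. Of the 37, 2 rose in Alkbh1-/- cells, Mrps2 and Mrps14, and 0 fell at an adjusted p under 0.05 in limma's moderated test, and 9 (24.3%) had an unadjusted p under 0.05, 2 of them higher and 7 lower. In either direction, 29.1% of the other named genes and 35.2% of those with a mean of 8 to 12 had such a p. The share of the members in either direction was below both. Counted by direction, 2271 of the 14374 other named genes had such a p and were lower, and 1913 were higher. Of the 4686 with a mean of 8 to 12, 886 had such a p and were lower, and 762 were higher. Among the other named genes, 7.29% rose and 7.24% fell, and among those with a mean of 8 to 12 the shares were 8.9% and 9.05%. Over all probe sets, 12.9% were called in either direction. With a fold over 1.5 as a further condition, 0 of 37 members and 7.57% of the other named genes were called. The median difference of the members, given as Alkbh1-/- minus WT throughout, was -0.03 on the log2 scale, beside -0.015 for the other named genes.

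The differences of the members lay in a narrower range than those of the background. Their standard deviation was 0.17, beside 0.40 for the other named genes and 0.37 for those with a mean of 8 to 12. The median size of the difference was 0.11 in the members and 0.15 in both backgrounds. These are descriptions of the lists, and no test was made of the list as a whole. For 36 of the 37 members, the whole 95% interval lay within a 1.5-fold change in either direction, the exception being Mrpl34. The same held for 73.7% of the other named genes and for 78.4% of those with a mean of 8 to 12. At the median standard error of the members, 0.09, a difference of 0.35 (1.27-fold) was needed for a call. Genes with a smaller standard error were called at smaller sizes, as Mrps14 was.

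**Figure D1:**
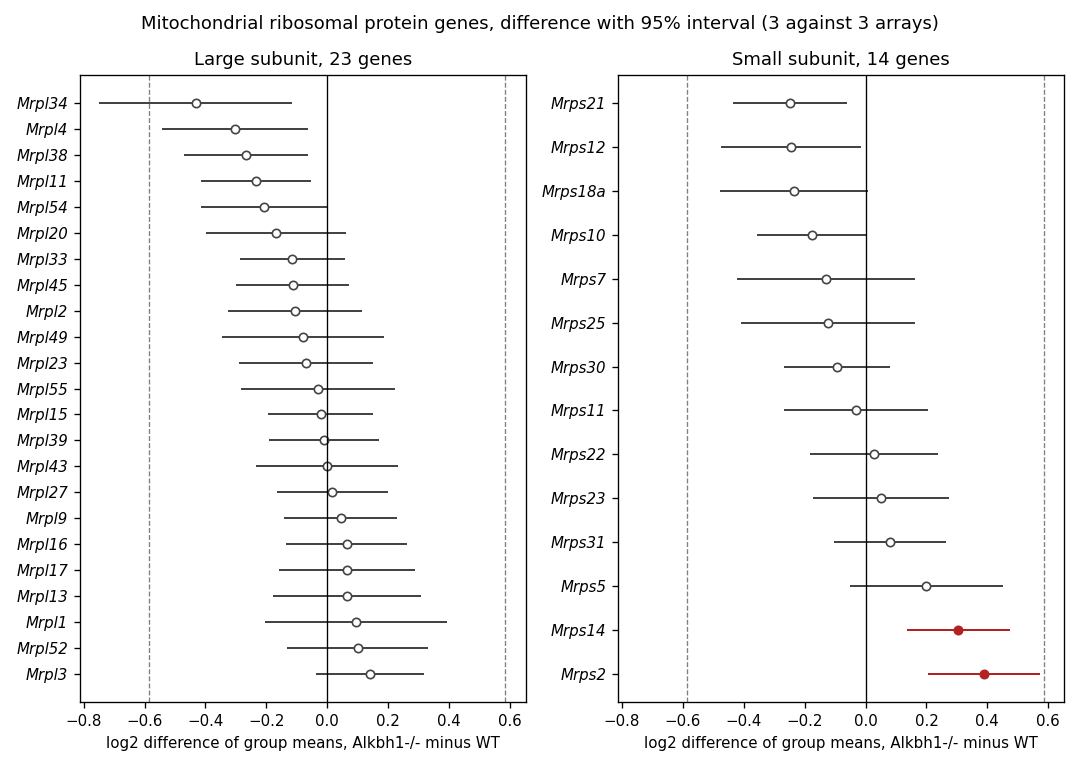
Difference of the group means (Alkbh1-/- minus WT, log2 scale) of the 23 large and 14 small subunit genes, 1 line a gene, with the 95% interval as a bar and dashed lines at a 1.5-fold change. Filled red points mark an adjusted p under 0.05, which Mrps2 (0.39) and Mrps14 (0.30) had, and the interval of Mrpl34 (-0.75 to -0.12) is the one that crosses a dashed line.

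In the small subunit, 2 of 14 genes rose and 0 fell, and 4 had an unadjusted p under 0.05, 2 in each direction. Mrps2, the counterpart of bacterial protein S2 between the head and the body of the subunit, had a mean log2 value of 10.24 in WT and 10.63 in Alkbh1-/- cells. The gene rose by 0.39 (SE 0.08, 95% interval 0.21 to 0.57, 3 arrays a group), or 1.31-fold, with an adjusted p of 0.0171 in limma's moderated test. The whole interval lay above 0. The other probe set of Mrps2 differed by 0.48, with means of 8.13 and 8.61, a standard error of 0.17 and an adjusted p of 0.111. An entry of the authors' class comparison was matched to that probe set by its values. Its geometric mean intensities, 280.5 in WT and 392.1 in Alkbh1-/- cells, restate these means on the linear scale. Both probe sets of Mrps2 thus lay in the same direction, and the brighter of them passed the test.

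Mrps14, the counterpart of bacterial S14 in the head of the subunit, had means of 11.35 in WT and 11.65 in Alkbh1-/- cells. It rose by 0.30 (SE 0.07, 95% interval 0.14 to 0.47), or 1.24-fold, with an adjusted p of 0.0322 in limma's moderated test. The dimmer probe set of Mrps14 differed by 0.20, with means of 7.78 and 7.98 and an adjusted p of 0.151, again in the same direction. Over the other processing settings tried, the adjusted p of Mrps2 ran from 0.0022 to 0.0263 and that of Mrps14 from 0.00179 to 0.0298, so both kept their call.

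The promoters of the genes that rose are shown first, as the members with a call, followed by 2 that hold features shared within the family. Letters run 5′ to 3′ on the strand of the gene from RefSeq sequence of assembly GRCm38.p6 and end at the base before the transcription start. For Mrps11, the 41 bases between its start and that of Mrpl46 on the opposite strand are shown (plus strand as printed). Capitals mark a match to CCGGAAG, the core that factors of the ETS family such as GABP bind, or CGCATGCG, the center of the NRF1 element, searched on both strands.
Mrps2 (chr2:28467816-28468065, plus strand): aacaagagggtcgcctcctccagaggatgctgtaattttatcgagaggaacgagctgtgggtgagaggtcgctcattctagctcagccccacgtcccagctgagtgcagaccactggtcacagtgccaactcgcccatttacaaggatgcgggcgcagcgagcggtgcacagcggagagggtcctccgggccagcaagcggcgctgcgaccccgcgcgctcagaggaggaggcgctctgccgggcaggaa
Mrps14 (chr1:160194965-160195214, plus strand): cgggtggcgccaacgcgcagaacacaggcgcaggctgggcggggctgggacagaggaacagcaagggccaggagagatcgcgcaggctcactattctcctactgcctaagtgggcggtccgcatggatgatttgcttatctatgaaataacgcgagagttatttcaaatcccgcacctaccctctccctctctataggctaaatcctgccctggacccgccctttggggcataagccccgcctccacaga
Mrpl17 (chr7:105811088-105811337, minus strand): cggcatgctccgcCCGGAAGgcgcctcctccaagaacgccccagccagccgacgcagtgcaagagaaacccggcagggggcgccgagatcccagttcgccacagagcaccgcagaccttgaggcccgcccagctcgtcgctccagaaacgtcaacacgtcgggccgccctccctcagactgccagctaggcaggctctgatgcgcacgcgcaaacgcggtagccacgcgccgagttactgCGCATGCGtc
Mrps11 (chr7:78783090-78783130, plus strand): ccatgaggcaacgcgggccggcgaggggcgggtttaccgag

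Promoter sequence was matched for 32 of the 37 members. The NRF1 center was found in 3 of the 32 (9.38%) and in 2.32% of the promoters of 17492 protein-coding genes. The ETS core was found in 8 (25%) beside 10.2% of all, and the YY1 core AAGATGGC in 2 (6.25%), Mrps11 and Mrps12, beside 1.77%. In Mrps11 the YY1 match lies beyond the start of Mrpl46, outside the bases printed. The last letters of the ETS core can also be the first of the YY1 core, but no member promoter held both. A match is a description of the sequence alone. The promoter of Mrpl17 held both the ETS core and the NRF1 center, while Mrpl17 itself differed by 0.07. Those of Mrps2 and Mrps14 held none of the 3 within these 250 bases. The median GC content was 58.4% in the members and 55.2% in all genes.

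Members often had a neighbor that starts in the opposite direction nearby. Of the 32, 8 (25%) had a protein-coding gene on the opposite strand whose start lay upstream within 1000 bases, beside 8.48% of all protein-coding genes. In 1 case the neighbor was itself of the family. Mrps11 and Mrpl46 start 42 bases apart, and they differed by -0.03 and -0.08. Mrps12 shares its start region with Sars2, the mitochondrial seryl-tRNA synthetase, and these differed by -0.24 and -0.19. Mrpl43 lies next to Twnk, the helicase of mitochondrial DNA, with differences of -0.0013 and -0.13. Mrpl49 lies next to Fau, which encodes a protein of the cytosolic ribosome, with differences of -0.08 and -0.06. None of the 8 neighbors was called. Over the 8 pairs, the neighbor with the lowest difference was Zfp661 beside Mrps5, at -0.48 with an adjusted p of 0.164, where Mrps5 stood at 0.20.

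Of the other small subunit genes, 8 had a lower and 4 a higher mean in Alkbh1-/- cells, and none of these 12 passed the test. Mrps21 had the lowest difference, -0.25 (means 9.89 in WT and 9.64 in Alkbh1-/-, 95% interval -0.43 to -0.06, adjusted p = 0.0864). Mrps12, which lies at the decoding center, differed by -0.24 (means 10.64 and 10.40, adjusted p = 0.155). Mrps18a differed by -0.24 as well (mean 9.77 in Alkbh1-/- cells, adjusted p = 0.193). The head proteins Mrps10 and Mrps7 differed by -0.18 and -0.13. These lower values thus included core proteins with bacterial counterparts. Mrps5, near the entry of the messenger RNA, stood at 0.20 with an interval of -0.05 to 0.45. The values nearest to 0 were those of Mrps22 (0.03), Mrps11 (-0.03), a protein of the platform, and Mrps23 (0.05). For Mrps22 the interval ran from -0.18 to 0.24.

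In the large subunit, 0 of 23 genes were called in limma's moderated test, and 5 (21.7%) had an unadjusted p under 0.05, all 5 lower in Alkbh1-/- cells. In the other named genes 4184 of 14374 (29.1%) had such a p, 2271 of them lower and 1913 higher. In either direction, the share of the large subunit was thus below the background. In the lower direction alone, 5 of 23 was a larger share than 2271 of 14374. It lay nearer to the 886 of 4686 among the other named genes with a mean of 8 to 12. Neither difference was tested. By the size of the difference, the 5 lower genes were Mrpl34, Mrpl4, Mrpl38, Mrpl11 and Mrpl54. Mrpl34 had means of 10.33 in WT and 9.90 in Alkbh1-/- cells, a difference of -0.43 (SE 0.13, 95% interval -0.75 to -0.12, adjusted p = 0.0825). In the authors' class comparison, the entry matched to this probe set by value has geometric mean intensities of 1285 and 953. These restate the same means on the linear scale. The standard error of Mrpl34 was the highest among the 37 members. Mrpl4, whose bacterial counterpart lines the tunnel through which the new chain leaves, differed by -0.30 (means 10.37 and 10.07, adjusted p = 0.102). Mrpl38, of the central protuberance, differed by -0.27 (means 9.30 and 9.03, adjusted p = 0.0888). Dimmer probe sets with its gene identifier, under another or no symbol, stood at 0.14 and 0.11 (means over all arrays 6.87 and 6.36), neither of them called. Mrpl54, a protein without a bacterial counterpart, differed by -0.21 (means 8.80 and 8.59, adjusted p = 0.183). The call of this subunit depended on how limma's prior variance was set. With a prior that followed the mean level, Mrpl34, Mrpl4, Mrpl38 and Mrpl11 were called lower, as was Mrps21 of the small subunit. Under that prior, 5 of 37 members were called lower and 2 higher. Of all other named genes, 9.25% were then called lower and 18.1% in either direction. The share among those with a mean of 8 to 12 was not computed under that prior.

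Mrpl11, at the base of the stalk where translation factors bind, was the large subunit gene with the most probe sets in 1 direction. Its brightest probe set had a mean of 10.77 in Alkbh1-/- cells, a difference from WT of -0.23 (adjusted p = 0.0943 in limma's moderated test). The next probe set differed by -0.24 with an adjusted p of 0.0819. The third, with means of 9.04 and 8.72, differed by -0.32 and passed the test with an adjusted p of 0.0455. The fourth and dimmest stood at -0.04. All 4 were lower in Alkbh1-/- cells, and the probe set that passed was not the one that represents the gene.

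The other 18 large subunit genes differed by -0.17 (Mrpl20) to 0.14 (Mrpl3), and the 95% interval of each included 0 at the probe set that represents it. That of Mrpl3 is dim (mean 5.66), and a brighter one under another symbol (mean 9.68) stood at 0.04. Near the catalytic center, Mrpl2 stood at -0.11 and Mrpl3 at 0.14. Mrpl16 differed by 0.06 and Mrpl27 by 0.02. At the tunnel exit, Mrpl23 differed by -0.07 and Mrpl45, which holds the ribosome to the inner membrane, by -0.11. The highest difference after Mrpl3 was that of Mrpl52, 0.10. Dimmer probe sets of Mrpl52 stood at 0.20 (95% interval 0.0061 to 0.395) and 0.18 (-0.01 to 0.376), neither of them called. The smallest sizes were those of Mrpl43 (-0.0013), Mrpl39 (-0.01) and Mrpl27. Mrpl39 had means of 11.76 in WT and 11.74 in Alkbh1-/- cells, with an interval of -0.19 to 0.17.

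More members were lower than higher in Alkbh1-/- cells, without passing the test. In the large subunit, 15 genes had a lower and 8 a higher mean, with a median difference of -0.03, though the sign of Mrpl43 turned once the median difference of all probe sets, -0.0067, was subtracted. In the small subunit, 8 were lower and 6 higher, with a median of -0.06 that turned to 0.02 when the probe sets of each gene were averaged. Of the other named genes, 7621 were lower and 6753 higher. Mrps18a and Mrps30 carry the name of the small subunit but sit in the large subunit in the structure of the mammalian mitochondrial ribosome. With these moved, the medians were -0.07 over 25 large and -0.0024 over 12 small subunit genes. By origin, the 24 proteins counted as homologs of bacterial ones had a median of -0.03 and included both genes that rose. The 13 not counted as such had a median of -0.08, with Mrps18a (-0.24) counted among them. Of these 13, 0 were called (2 had an unadjusted p under 0.05 in limma's moderated test, both lower). The difference between these groups was not tested.

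Probe sets listed under the same symbol did not always point one way. Of the 37 genes, 23 had a single probe set and 14 had several, 38 in all. In 8 of the 14, all probe sets lay in the same direction, among them Mrps2, Mrps14, Mrpl11, Mrpl34 and Mrpl52. In the other 6 (Mrpl15, Mrpl39, Mrpl49, Mrps11, Mrps23 and Mrps25) the signs differed, and 0 of the probe sets under these symbols were called in limma's moderated test. Of these, 1 had an unadjusted p under 0.05, the middle probe set of Mrps25, which stood at 0.20 (adjusted p = 0.122) while the brightest stood at -0.12. Mrpl15 had the most under its symbol, 6, between -0.06 and 0.14. The widest disagreement was in Mrps11, with -0.03 at a mean of 8.84 and 0.41 at a mean of 5.72, the latter with a standard error of 0.21. One of the 3 probe sets of Mrpl49, the higher one at 0.03, carries the gene identifier of Dcaf15, and the other two were both lower. Of the 61 probe sets, 8 had a mean below 6.31, the median of all probe sets, and Mrpl3 was the only gene represented by one of them.

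**Figure D2:**
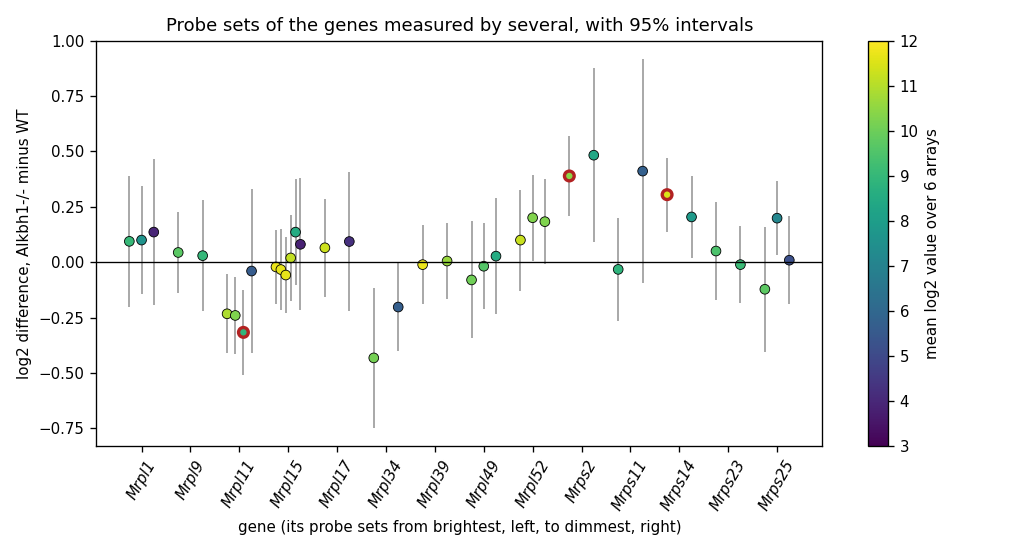
Difference (Alkbh1-/- minus WT, log2 scale) of each of the 38 probe sets of the 14 genes with several, drawn from the brightest on the left to the dimmest on the right, with 95% intervals and with the mean log2 value as color. Red rings mark an adjusted p under 0.05, held by 1 probe set each of Mrpl11 (-0.32), Mrps2 (0.39) and Mrps14 (0.30), and the dim probe set of Mrps11 has the widest interval.

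The symbols in the table are old for part of the family, so the genes were also collected by gene identifier. This gave 77 of the 78 Mrpl and Mrps genes of RefSeq, 40 of them not among the 37, in 144 probe sets. At the brightest probe set of each, 3 rose and 1 fell. Mrps24, listed under a clone name, had means of 10.47 in WT and 10.80 in Alkbh1-/- cells and rose by 0.33 (adjusted p = 0.0409 in limma's moderated test). A further probe set of Mrps24 rose by 0.31 (adjusted p = 0.0497). Mrps33, listed without a symbol, had means of 10.44 and 10.09 and fell by 0.35 (adjusted p = 0.0407). With Mrps2 and Mrps14, 4 of 29 small subunit genes (13.8%) were called in either direction, a share near the 14.5% of the other named genes. In the large subunit 0 of 48 were called by limma's moderated test, and 7 (14.6%) had an unadjusted p under 0.05, 6 lower and 1 higher. In the other named genes 29.1% had such a p in either direction. Whether the subunits differed was not tested. Dimmer probe sets, beyond that of Mrpl11, gave calls in 2 large subunit genes, Mrpl35 at 0.37 (adjusted p = 0.0163, mean 5.84, brightest probe set -0.08) and Mrpl15 at -0.35 (adjusted p = 0.0355, listed as C81203 and not among the 6 under the symbol Mrpl15, brightest probe set -0.02). For Mrpl3, Mrpl13 and Mrps5, a brighter probe set lay under another or no symbol. These stood at 0.04, -0.10 and 0.12 in place of 0.14, 0.07 and 0.20, so the sign of Mrpl13 turned, and none was called. With them the median over the 37 members was -0.07.

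The other genes of mitochondrial translation were described from a list of 3 groups, in which 0 of 37 genes rose and 3 (8.11%) fell at the brightest probe set, with a median difference of -0.09. The share that fell was near the 7.24% of the other named genes. Ribosome proteins with other symbols, 7 genes, had 0 calls in limma's moderated test and 0 at an unadjusted p under 0.05. Dap3, of the small subunit, stood at -0.04, Chchd1 at -0.16 and Gadd45gip1 at 0.16. The list also holds Mrpl57 and Mrpl58, which the table gives under older symbols and which are counted in the family by gene identifier above.

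Among 11 translation factors, 1 fell. Mrrf, which frees the ribosome from the messenger RNA after the chain is finished, had means of 8.80 in WT and 8.43 in Alkbh1-/- cells, a difference of -0.37 (SE 0.08, adjusted p = 0.0216 in limma's moderated test). Of the 11 factors, 9 had a lower mean. The elongation factors Tufm, Tsfm, Gfm1 and Gfm2 differed by -0.17, -0.10, -0.14 and -0.29, and the initiation factors Mtif2 and Mtif3 by -0.09 and -0.13. Mtfmt, which puts the formyl group on the initiator tRNA, stood at -0.27 (adjusted p = 0.0932). The 2 higher ones were Mtrf1l, a release factor, at 0.29 (adjusted p = 0.0804) and Oxa1l, which inserts new chains into the inner membrane, at 0.25 (adjusted p = 0.0938). A dimmer probe set of Oxa1l, with means of 6.26 and 6.76, rose by 0.50 and passed the test (adjusted p = 0.0464).

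Of 19 genes of ribosome assembly and rRNA modification, 2 fell. Gtpbp10, a GTPase of large subunit assembly, had a mean of 8.44 in Alkbh1-/- cells and fell by 0.56 on the log2 scale (SE 0.10, 1.47-fold, adjusted p = 0.0129 in limma's moderated test). Its other probe set fell by 0.61 (adjusted p = 0.00847). Gtpbp10 thus had the largest difference of the 37 genes on the list and was lower in both probe sets. Rpusd4, a pseudouridine synthase, fell by 0.28 (means 8.71 and 8.43, adjusted p = 0.0446). The rRNA methyltransferases Tfb1m and Nsun4 stood at -0.06 and 0.06, and the GTPases Mtg1, Mtg2 and Noa1 lay between -0.05 and 0.02.

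**Figure D3:**
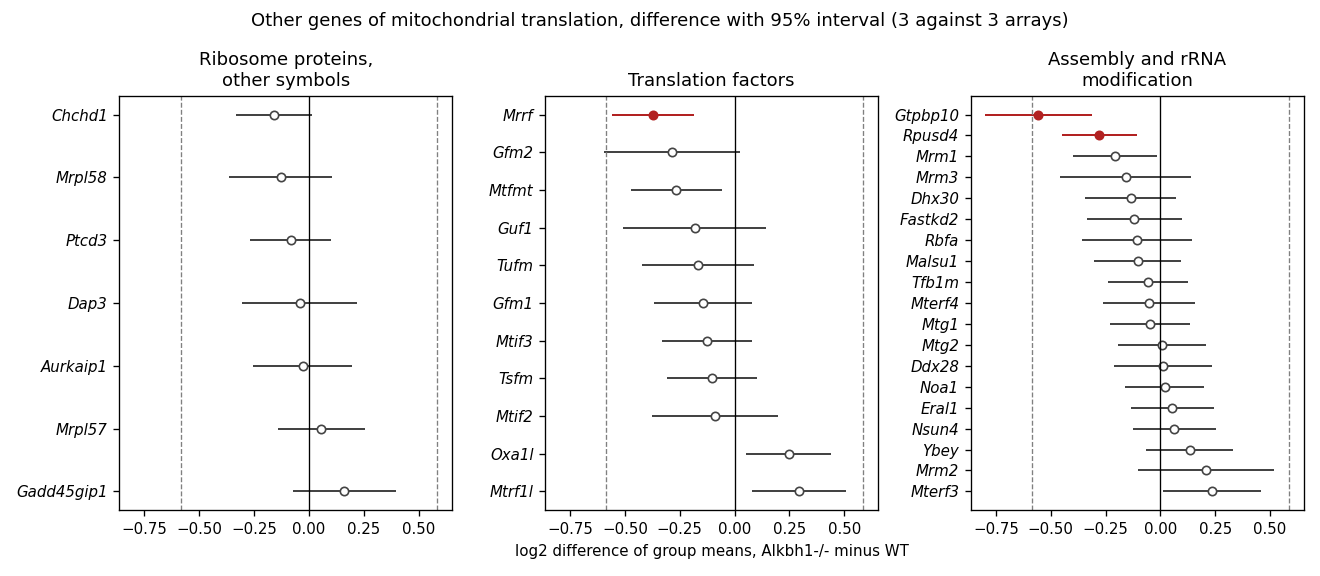
Differences (Alkbh1-/- minus WT, log2 scale) of the 7 ribosome proteins with other symbols, 11 translation factors and 19 genes of assembly and rRNA modification, with 95% intervals and dashed lines at a 1.5-fold change. The filled red points are those of Mrrf (-0.37), Gtpbp10 (-0.56) and Rpusd4 (-0.28), all to the left of 0.

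Genes that act before translation were looked at as well. Of 8 genes of mitochondrial transcription and RNA stability, 0 were called in limma's moderated test and 1, Lrpprc, had an unadjusted p under 0.05, at -0.21. The polymerase Polrmt stood at -0.08 and Tfam, which packs mitochondrial DNA, at 0.17. Of 9 nuclear regulators of mitochondrial genes, 1 fell. Myc had means of 9.05 in WT and 8.34 in Alkbh1-/- cells and fell by 0.72 (adjusted p = 0.00696). Those whose motifs were searched stood at 0.14 for Nrf1, 0.18 for Gabpa and -0.0055 for Yy1 at the brightest probe set, none of them called. A dimmer probe set of Gabpa, with means of 8.38 and 8.77, rose by 0.39 (adjusted p = 0.021), and one of Gabpb2 rose by 0.42 (adjusted p = 0.0381) while its brightest stood at 0.20.

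The cytosolic ribosomal proteins and the nuclear-encoded subunits of oxidative phosphorylation are the gene families most like the mitochondrial ribosomal proteins. Of 55 cytosolic Rpl and Rps genes, 2 rose, Rpl10 by 0.27 and Rpl44 (Rpl36a) by 0.39, and 0 fell, with a median of 0.0082 and a standard deviation of 0.08. Of 35 subunits of oxidative phosphorylation, 3 rose, Ndufa1 by 0.75, Cox7ah (Cox7a1) by 0.43 and Cox5a by 0.33, and 0 fell, with a median of 0.02. The genes that rose were 3.64% of the cytosolic family and 8.57% of the oxidative phosphorylation subunits. Among the other named genes, 7.29% rose and 14.5% were called in either direction. Neither family was split by chromosome, and the part of X-linked genes in these calls was not tested. On the X chromosome 220 of 428 named genes rose, while 0 members lay on X or Y. The differences of the mitochondrial ribosomal proteins, with a standard deviation of 0.17, were spread more widely than those of the cytosolic ones. Those of the oxidative phosphorylation subunits had a standard deviation of 0.18, close to that of the members. Both families, like the members, thus lay below the 0.40 of the other named genes. The probe sets of the cytosolic family had a median of the mean log2 values of 14.01 and those of the members 10.07, a brightness that cannot be read as a level of one transcript against another, and the part of brightness in the spread was not tested. The difference between the families was not tested either.

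**Figure D4:**
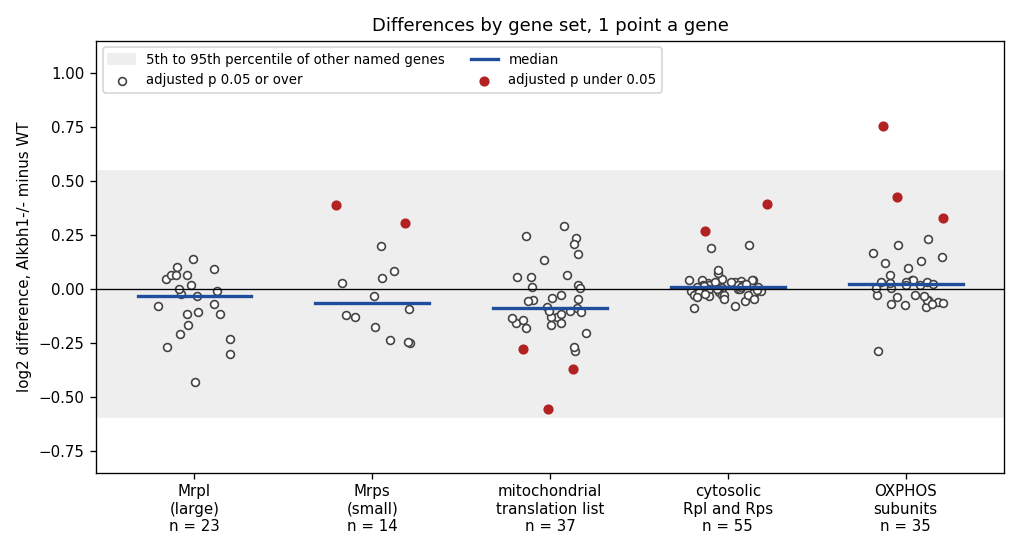
Differences (Alkbh1-/- minus WT, log2 scale) of the genes of each set, 1 point a gene, with the median as a blue line, calls at an adjusted p under 0.05 in red and the 5th to 95th percentile of the other named genes (-0.59 to 0.55) in gray. All Mrpl and Mrps points lie within the gray band, and the point above it is Ndufa1 (0.75).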

How the data were processed

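Arrays were grouped by the genotype in the labels. The authors normalized the arrays by robust microarray analysis. Their first deposited table covers 33142 probe sets, left by a filter not given in the sources used here. Its log2 values, as deposited, are the mean over the 6 arrays and the difference between genotypes. The same deposited table gives a score, the moderated statistic of the comparison, and its p-value with the adjusted p-value. A second table deposited by the authors, a class comparison, gives geometric mean intensities of 4326 probe sets and their fold. These columns hold the authors' own comparison; with no single arrays analysed here, their differences and p-values were used in place of the planned fit to single arrays. The direction is Alkbh1-/- minus WT, read from the class names and the targeted gene (the WT class bears another name than the WT arrays and was identified from the accompanying description).

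Standard errors were the difference divided by the moderated statistic. The total degrees of freedom (7.14) gave 95% intervals, and the prior (3.14 degrees of freedom, variance 0.0160) was recovered with limma 3.58.1 in R 4.3.3 at 4 residual degrees of freedom. Recomputed Benjamini-Hochberg values differed from the deposited ones by at most 4.96e-08. A gene was called when its two-sided p, adjusted over the 33142 probe sets, was under 0.05. The recovery was tested on simulated data. The 4261 class comparison entries that match a probe set in difference and mean (within 0.0001) were joined by value, since 8 carry the same identifier. Tables and plots were made in Python 3.11.15 using pandas 2.3.3, matplotlib 3.10.9 and SciPy 1.17.1.

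Alternatives were a prior variance with a trend on the mean, Student's test, adjustment over 1 row per gene, a filter at the median of the means, subtraction of the median difference and, added after seeing the data, the family by gene identifier and the brightest row of each identifier. Named were Alkbh1, the members called, the 3 members of each subunit with the smallest differences, members whose probe sets disagree and called genes of the lists; other members and genes were named for their role. The members and lists were chosen with earlier results of these data known. Of the lists, Mtrf1, Pdf, Taco1, C7orf30, Mterf and Ppargc1a had no named row, and the other named lists are stem cell, feeder fibroblast, Y-linked and X-inactivation genes. Mitochondrially encoded genes were not analysed here. The number of arrays limits the precision.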

Additional observations from a re-analysis of the deposited data

How the results depend on the processing

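Letting the prior variance follow the mean raised the large subunit genes called from 0 to 4. Mrpl34 (adjusted p = 0.037, 0.037 to 0.201 over the settings), Mrpl4 (0.0418, 0.0418 to 0.175), Mrpl38 (0.0452, 0.0452 to 0.109) and Mrpl11 (0.0191, 0.0191 to 0.102) were then called lower by limma, as was Mrps21 (0.0323, 0.0323 to 0.0938). Under that prior, 5 of 37 members were called lower and 2 higher, beside 9.25% of the other named genes lower and 18.1% in either direction. These shares are over all other named genes, not matched on the mean level. The other 32 members kept their side of the threshold under it. Student's test, adjustment over 1 row per gene, the filter on the mean (36 members) and subtraction of the median difference moved no member across the threshold. With the last, the sign of Mrpl43 turned (adjusted p = 0.9825, 0.9825 to 0.996 over the settings). Collected by gene identifier, a choice made after seeing the data, 4 small subunit genes were called in place of 2. The added ones, Mrps24 and Mrps33, were outside the 37 since they are listed under a clone name or without a symbol.

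No paired analysis was possible because single arrays were not analysed here, and for the same reason leaving out each array in turn was not run. Medians from the class comparison were not run, since it holds 2 probe sets of members. A call rests on 3 arrays of 1 line in each genotype.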
